A study of Homo sapiens with 4 samples.

Results

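Tubulin isotypes were examined in MDA-MB-231 cells, an established human triple-negative breast cancer line with mesenchymal features, by mRNA sequencing. The members were 10 genes, TUBA1A, TUBA1B, TUBA1C and TUBA4A of the alpha class and TUBB, TUBB2A, TUBB2B, TUBB3, TUBB4B and TUBB6 of the beta class. Every row of the deposited table that carried one of these symbols was taken, which gave 35 of 43596 transcripts and 10 of 15113 genes. Cells were treated for 24 h with DMSO, the solvent, or with 10 µM KH-3, an inhibitor of the RNA-binding protein HuR, with 2 libraries in each group. The table lists 1 mean normalized read count per transcript, formed by the authors over libraries, and 3 columns of their own comparison of KH-3 with DMSO, which are not used here. The methods also name a group at a lower dose of KH-3, which is not analysed here, and which libraries entered the mean is not given in the sources used here. The levels below therefore do not set treated and untreated cells apart. No difference between KH-3 and DMSO was tested, no spread between libraries could be given for any value, and the sequencing depth behind each value is unknown.

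Alpha and beta tubulin pair into the dimer from which microtubules are built, the filaments of the mitotic spindle, of intracellular transport and of cilia. Vertebrates carry several genes for each class, known as isotypes, whose proteins are alike along most of their length and differ most in the acidic tail at the end. Cells lower the level of tubulin mRNAs when free dimers are in excess, a feedback in which TTC5 recognises the first residues of the tubulin chain as it leaves the ribosome. Most alpha tubulins end in a tyrosine that is removed and put back by enzymes, and TUBA4A is made without it. HuR, the target of KH-3, binds AU-rich stretches in many mRNAs.

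The first bases of the coding sequence of each member and the last bases of 8 of them are shown because the feedback reads the start of the protein and because the ends set the isotypes apart. They come from the canonical transcript of each gene in GENCODE release 44 on hg38, and each of these transcripts has 4 exons. In the first 30 bases, starting with the start codon, capitals mark bases that differ from TUBA1B for the alpha genes and from TUBB for the beta genes. TUBA1A, TUBA1B and TUBA1C had the same first 30 bases, TUBA4A differed at 5 of them, and the beta genes differed from TUBB at 3 to 5.
TUBA1A start: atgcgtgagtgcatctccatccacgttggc
TUBA1B start: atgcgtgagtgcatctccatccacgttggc
TUBA1C start: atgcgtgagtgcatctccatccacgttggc
TUBA4A start: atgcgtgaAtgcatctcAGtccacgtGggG
TUBB start: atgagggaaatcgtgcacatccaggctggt
TUBB2A start: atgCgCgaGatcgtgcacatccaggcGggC
TUBB2B start: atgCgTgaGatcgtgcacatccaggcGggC
TUBB3 start: atgagggaGatcgtgcacatccaggcCggC
TUBB4B start: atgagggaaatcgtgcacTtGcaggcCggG
TUBB6 start: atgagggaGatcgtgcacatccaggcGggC

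In the last 30 bases, capitals mark the last codon before the stop codon. It is a tyrosine codon in TUBA1C and a glutamate codon in TUBA4A. TUBB2A and TUBB2B differed only within the last codon and the stop codon. Of the 8 genes shown, TUBB3 was the 1 whose last codon is that of lysine.
TUBA1C end: gacggagaggatgagggtgaagagTATtaa
TUBA4A end: tatgaggacgaggatgagggagaaGAAtaa
TUBB end: ttcggtgaggaggccgaagaggagGCCtaa
TUBB2A end: gaggaggaggagggcgaggacgagGCTtaa
TUBB2B end: gaggaggaggagggcgaggacgagGCGtag
TUBB3 end: gaggagtcggaggcccagggccccAAGtga
TUBB4B end: gaggaggaggctgaggaggaggtgGCCtag
TUBB6 end: gaggatgaggaagaggagatcgatGGAtag

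The alpha genes TUBA1A, TUBA1B and TUBA1C lie together on chromosome 12 of hg38. TUBA1B is at chr12:49127782-49131397 and TUBA1A at chr12:49184686-49189080, both on the minus strand, and TUBA1C is at chr12:49188736-49274600 on the plus strand, so the annotated starts of TUBA1A and TUBA1C overlap. The TUBA1C forms with a row that were found in release 44 start at base 49227926 or beyond, outside TUBA1A. TUBA4A is at chr2:219249710-219277902 on the minus strand. TUBB2A, at chr6:3153497-3157544, and TUBB2B, at chr6:3223324-3231730, are neighbours on the minus strand of chromosome 6, and TUBB lies farther along it at chr6:30717435-30725538 on the plus strand. TUBB3 is at chr16:89921392-89938761, TUBB4B at chr9:137241287-137243707 and TUBB6 at chr18:12307669-12344320, all on the plus strand.

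Levels were compared between genes as the mean normalized read count per kb of transcript, summed over the listed transcripts of a gene. On this scale TUBB, a broadly expressed beta tubulin, was the highest member at 12734 per kb, rank 37 of 15113 genes and 118-fold over the median gene at 108 per kb. TUBA1B, a broadly expressed alpha tubulin, followed at 7810 per kb, rank 70. TUBA1C was at 5093 per kb and TUBB4B, a beta tubulin also found in cilia, at 4937 per kb, ranks 122 and 127. These 4 genes stood 4.12-fold or more above the next member, TUBB6. The gap was smaller with protein-coding transcripts alone, where TUBA1C was at 3010 and TUBB6 at 914 per kb. It was also smaller with the transcript of highest mean alone, at 2078 and 693 per kb. Without division by length the gap was smaller too, with summed means of 7100 for TUBA1C and 2227 for TUBB6. With 200 bases taken off each length it was slightly smaller, with TUBB4B at 5577 and TUBB6 at 1372 per kb. It was not smaller with transcripts under a mean of 50 left out, where TUBB4B was at 4937 and TUBB6 at 1144 per kb. The 35 tubulin transcripts together held 0.563% of the summed mean normalized read count of the table.

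A middle group of 4 genes lay within a narrow range. TUBB6 was at 1198 per kb, TUBB2A at 929 per kb, TUBB3, best known as the neuronal beta tubulin, at 771 per kb, and TUBA1A, best known from the developing brain, at 709 per kb. Neighbours in this group differed by 1.09-fold to 1.29-fold, and without a spread over libraries no order among TUBB2A, TUBB3 and TUBA1A can be drawn. TUBA4A stood 4.91-fold below TUBA1A at 144 per kb, close to the median gene. Most of this level came from the short form TUBA4A-011, at 96.6 per kb. The longer TUBA4A-001 alone was at 37.7 per kb, below the median gene. TUBB2B was lowest at 15.0 per kb, rank 12648, below the median gene and 851-fold under TUBB.

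**Figure D1:**
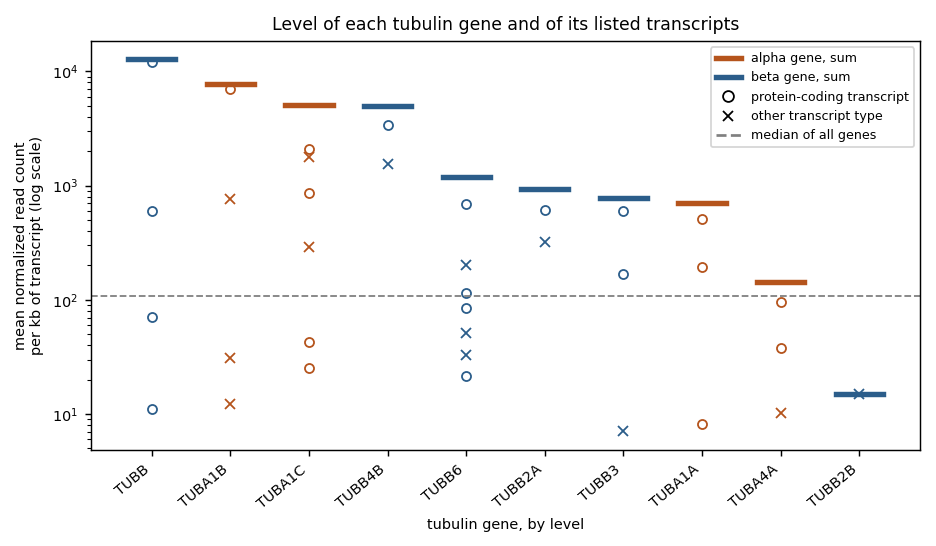
Level of each tubulin gene in MDA-MB-231 cells, as the authors' mean normalized read count per kb of transcript on a log axis. Bars are the sum over the listed transcripts of a gene (orange alpha, blue beta), circles are protein-coding transcripts, crosses are other transcript types, and the dashed line is the median of all genes at 108 per kb. TUBB at 12734, TUBA1B at 7810, TUBA1C at 5093 and TUBB4B at 4937 stand above the other 6 genes, and TUBB2B at 15.0 lies below the dashed line.

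Within the beta class, TUBB held 61.9% of the summed level, TUBB4B 24.0%, TUBB6 5.82%, TUBB2A 4.51%, TUBB3 3.74% and TUBB2B 0.0727%. Within the alpha class, TUBA1B held 56.8%, TUBA1C 37.0%, TUBA1A 5.16% and TUBA4A 1.05%. The tyrosine-ending genes TUBA1A, TUBA1B and TUBA1C, which share much sequence, were also taken as 1 group. Together they were at 13612 per kb and made up 98.9% of the alpha level. Each mean was divided by its own transcript length, so this sum still depends on the forms to which shared reads were assigned. TUBB2A and TUBB2B, which share most of their coding sequence, were at 944 per kb together, 4.59% of the beta level. The 4 alpha genes summed to 13757 per kb and the 6 beta genes to 20584 per kb, a ratio of 0.668. This ratio was 0.450 to 0.700 over the ways of counting transcripts and lengths that were tried.

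The reads of most members fell largely on 1 protein-coding transcript. TUBB had 4 listed transcripts, all protein-coding, with mean normalized read counts of 32176 for TUBB-001, 1582 for TUBB-002, 199 for TUBB-004 and 32.0 for TUBB-003. TUBB-001 thus held 94.7% of the gene. TUBA1B had 11386 on TUBA1B-001 and 1441 on TUBA1B-006, a transcript annotated as a target of nonsense-mediated decay, the pathway that removes mRNAs with an early stop codon. Its retained-intron forms TUBA1B-002 and TUBA1B-008 had 99.0 and 10.3. TUBA1A had 974 on TUBA1A-001, 266 on TUBA1A-006 and 8.12 on TUBA1A-011. All 3 of these are protein-coding, and the first held 78.0%.

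The reads of TUBA1C were spread more evenly over its 6 listed forms. Its protein-coding TUBA1C-002 had 3523, or 49.6% of the gene, TUBA1C-201 had 929, TUBA1C-001 had 129 and TUBA1C-006 had 17.5. Its retained-intron form TUBA1C-007 had 1982 and its decay form TUBA1C-003 had 520. The transcript TUBA1C-001, whose ends are printed above, was therefore not the one that held most reads. TUBA1C-002 has an annotated start farther upstream and the same end of the coding sequence. TUBA4A, the isotype without the tyrosine codon, had 81.4 on TUBA4A-001, 59.4 on the shorter TUBA4A-011 and 8.09 on the processed transcript TUBA4A-006, so its level rests on few reads.

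Among the beta genes below TUBB, TUBB4B had 5532 on the protein-coding TUBB4B-001 and 3169 on the retained-intron TUBB4B-002. TUBB6 had the most forms, with 1430 on TUBB6-001, 434 on the retained-intron TUBB6-002 and 171 or less on each of the other 5. TUBB3 had 1054 on TUBB3-001, 332 on TUBB3-002 and 13.1 on the decay form TUBB3-013. TUBB2A had 973 on TUBB2A-001 and 261 on the processed transcript TUBB2A-002. TUBB2B was listed with the processed transcript TUBB2B-002 alone, at 28.8, and no protein-coding transcript of TUBB2B had a row. In all, 22 of the 35 transcripts were protein-coding, 5 had a retained intron, 5 were decay targets and 3 were processed transcripts. For 9 of the 35 the mean was under 50, against 49.6% of all transcripts in the table, and these 9 were at 32.0 or lower, with 7.34 the lowest mean listed for any transcript.

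Retained-intron forms held 36.4% of the reads of TUBB4B, 27.9% of TUBA1C, 19.5% of TUBB6 and 0.845% of TUBA1B. Over the 3836 genes of the table with both a protein-coding and a retained-intron transcript the median share was 11.3%, and these 4 genes stood at percentiles 80.3, 73.2, 64.4 and 5.21. Decay forms held 11.1% of TUBA1B, 7.32% of TUBA1C, 4.29% of TUBB6 and 0.936% of TUBB3, against a median of 11.6% over 2284 genes. The percentiles for these were 49.0, 38.3, 26.7 and 5.47, so none stood in the upper range. Such shares are estimates by the authors' software from reads that the forms of a gene have in common. Of TUBB4B-002, 26.2% of the 50-base stretches occur in no other transcript, whereas for TUBA1C-007 that share is 3.88%.

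**Figure D2:**
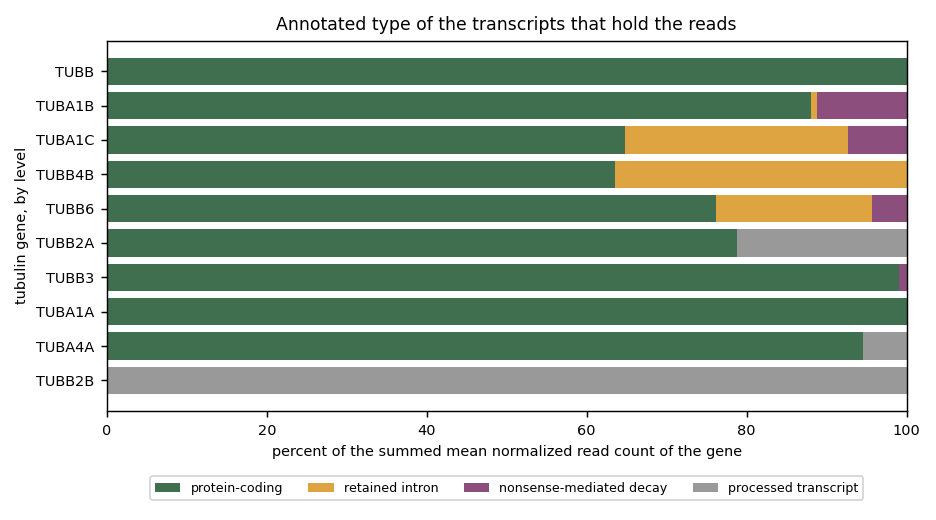
Share of each tubulin gene's summed mean normalized read count that fell on each annotated transcript type, in percent, with genes ordered by level from top to bottom. Retained-intron forms take 36.4% of TUBB4B and 27.9% of TUBA1C, decay forms take 11.1% of TUBA1B, and TUBB2B is listed with a processed transcript alone.

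How far a read can be assigned to 1 isotype depends on the sequence the genes share. Each transcript was therefore cut into all its 50-base stretches, and the stretches were looked up on both strands in the transcripts of every other gene of GENCODE release 44. TUBA1B-001 shared 87.1% of its stretches with some other gene and 56.6% with another member. TUBA1A-001 shared 50.6% with other genes, nearly all with other members, namely 37.5% with TUBA1B and 31.6% with TUBA1C. TUBA1C-002, the form with most reads of its gene, shared 71.9% with other genes and 45.0% with members. Sharing among these 3 genes lay mostly in the coding sequence, where 58.4% of TUBA1A-001, 68.3% of TUBA1B-001 and 57.0% of TUBA1C-001 was found in another member. The 3′UTRs of these 3 transcripts had no stretch in common with another member. The 5′UTR of TUBA1A-001 was found in full in TUBA1C, which is annotated over it on the opposite strand, by 104 bases of exon. That overlap is with a release 44 form of TUBA1C that had no row.

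TUBB2A and TUBB2B formed the other close pair. TUBB2A-001 shared 59.5% of its stretches with TUBB2B, and TUBB2B-002 shared 48.8% with TUBB2A. Of TUBB2B-002, 39.5% of the stretches were found in no other gene, and the summed mean of TUBB2B was 28.8 against 1234 for TUBB2A. TUBB2A-001 also shared 20.9% with the pseudogene TUBB2BP1. By contrast TUBB6-001 shared 1.09% of its stretches and TUBB4B-001 15.3%, of which 6.21% was with members. TUBA4A-001 and TUBB-001 had no stretch of 50 bases in common with another member.

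Genes outside the list of members shared stretches with them as well. TUBB-001 shared 19.9% with ENSG00000272540, which is annotated on the opposite strand, overlaps TUBB exons by 538 bases and had no row in the table. It shared 17.1% with the pseudogene TUBBP1, listed at 27.2 per kb, and 2.15% with TUBBP2, listed at 19.1 per kb, both far below TUBB itself. TUBB3-001 shared 92.8% with ENSG00000198211, a gene annotated as running through TUBB3 on the same strand, which was listed as RP11-566K11.2 at 4.96 per kb. TUBA1B-001 shared 68.7% with TUBA1B-AS1, which is annotated on the opposite strand and overlaps TUBA1B exons by 1571 bases. TUBA1B-AS1 had no row in the table either. TUBA1C-002 shared 35.8% with ENSG00000258232, also annotated on the opposite strand and without a row. TUBA4A-001 shared 29.0% with STK16 on the opposite strand, listed at 29.2 per kb. TUBB6-006, a minor form with a mean of 85.8, shared 61.2% with AFG3L2 on the opposite strand, a mitochondrial protease gene listed at 1021 per kb. Whether the authors' counting used the strand of the reads is not given in the sources used here, and without it reads of such opposite-strand pairs cannot be told apart.

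**Figure D3:**
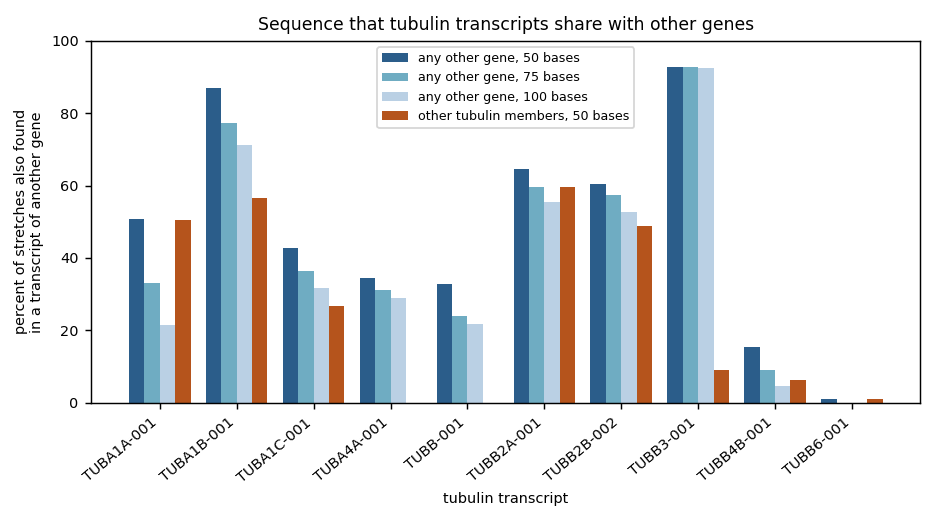
Share of the stretches of 1 transcript per tubulin gene that also occur in a transcript of another gene, in percent, for stretches of 50, 75 and 100 bases against any other gene (blue) and of 50 bases against the other members alone (orange). TUBB3-001 at 92.8% and TUBA1B-001 at 87.1% share most, and TUBB6-001 at 1.09% shares least. For TUBA1C the form shown is TUBA1C-001, at 42.7%, which held few reads. TUBA1C-002, with most reads of that gene, shared 71.9% and is not shown.

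The coding sequences set out the same grouping. TUBA1A and TUBA1B were identical at 97.2% of aligned bases, TUBA1B and TUBA1C at 96.8% and TUBA1A and TUBA1C at 95.9%, with identical runs of up to 326 bases. TUBA4A reached 84.4% to 85.7% with these 3 genes, with no identical run over 32 bases. TUBB2A and TUBB2B were identical at 98.1% with a run of 725 bases. TUBB, the most abundant member, was at 80.9% with TUBB6 to 84.7% with TUBB2A and TUBB2B, and TUBB4B with TUBB6 and with TUBB3 was within this range, at 83.2% and 84.3%. TUBB3 was closest to TUBB2A at 87.7%.

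**Figure D4:**
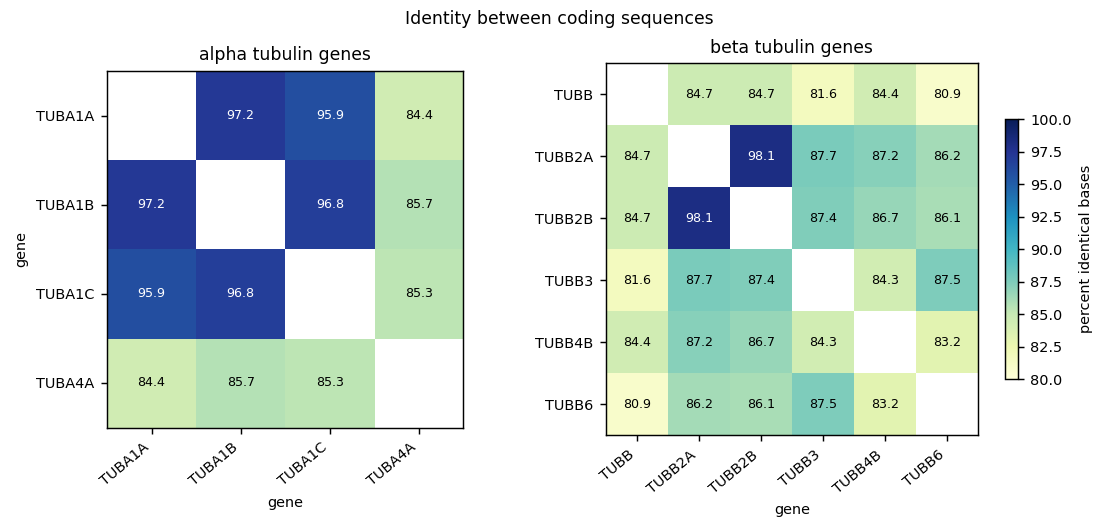
Percent identical bases between aligned coding sequences of the alpha genes (left) and of the beta genes (right). TUBA1A, TUBA1B and TUBA1C lie between 95.9% and 97.2%, TUBB2A and TUBB2B are at 98.1%, and all other pairs are between 80.9% and 87.7%.

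The pentamer AUUUA, the core of many AU-rich elements, was counted in the 3′UTR of the listed coding transcript with most reads of each gene, on the transcript strand and in GENCODE release 44. TUBB, TUBA4A and TUBB3 held it 1 time each, in 3′UTRs of 1025, 642 and 293 bases, and the corresponding transcripts of the other 6 genes with a listed coding transcript did not hold it. For TUBA1C this depends on the form. TUBA1C-002, which was searched, ends 107 bases after the stop codon, whereas TUBA1C-001, with fewer reads, has a 3′UTR of 1373 bases from the same stop codon and holds the pentamer 1 time. TUBB2B was not searched, as it had no listed coding transcript. Its canonical transcript, which had no row, has a 3′UTR of 474 bases and holds the pentamer 2 times. The 3 sites in the searched transcripts are shown with 8 bases on either side and the pentamer in capitals, written with T.
TUBB site: cagatcccATTTAgaaccaac
TUBA4A site: gcctctacATTTAccaactct
TUBB3 site: cctgcagtATTTAtggcctcg

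Most of the 3′UTRs searched were short. They had 107 bases in TUBA1C-002, 151 in TUBB4B, 176 in TUBA1B, 197 in TUBB2A, 215 in TUBA1A and 486 in TUBB6, against a median of 1254 bases over 11900 genes, of which 72.7% held the pentamer. Among genes with a 3′UTR within 10% of the same length, the share with AUUUA was 77.6% for the length of TUBB, 61.2% for TUBA4A and 43.5% for TUBB3. It was 56.8% for TUBB6 and 16.8% to 33.6% for the 5 shortest. The share of A and U was above the median at like length in 5 of the 9 genes. These were TUBA1C-002 at 69.2% against 58.2%, TUBA1A at 64.7% against 52.9%, TUBA1B at 63.1% against 55.6%, TUBB2A at 64.5% against 55.4% and TUBB6 at 57.6% against 54.3%, and none of these searched 3′UTRs held the pentamer. The longer 3′UTR of TUBA1C-001 was 53.8% A and U. TUBB, TUBA4A and TUBB3, which held it, were below that median at 54.9%, 49.2% and 44.7%, as was TUBB4B at 49.7%. Of the searched transcripts only TUBA1B-001 and TUBA1C-002 had the same total length in release 44 as listed by the authors. TUBA1A-001 had 1672 bases against 1915 listed, and TUBB-001 had 2515 against 2670. The 3′UTRs searched may therefore differ from those of the forms that were counted. A match of these letters describes the sequence and does not show binding.

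Other genes of the microtubule system were taken from a list of 66, of which 56 were listed, 33 above the median gene level and 7 above 1000 per kb. None reached TUBB, and the median of the list was 164 per kb. The lowest of the 7, MAP4 at 1024 per kb, was at rank 1123 of all 15113 genes. By definition the median gene level has as many genes above it as below. No other alpha tubulin of the 6 in the list had a row, and of the 3 other beta tubulins TUBB4A was listed at 32.9 per kb. TUBG1, the gamma tubulin from which microtubules start, was at 1387 per kb, TUBG2 at 204, TUBE1 at 154 and TUBD1 at 21.9 per kb. Of the genes grouped under tubulin folding cofactors, TBCB was at 1238 per kb, ARL2 at 1049, TBCA at 788 and TBCEL at 87.9 per kb. What each product does to the dimer was not examined. STMN1, or stathmin, which holds free dimers, was the highest of the list at 3467 per kb, and STMN3 was at 3.56 per kb.

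TTC5, which starts the decay of tubulin mRNAs, was at 205 per kb. TTL, which puts the tyrosine back, was at 478 per kb. VASH1 and VASH2, which remove it, were at 33.4 and 11.3 per kb, and SVBP, grouped with them, was at 249 per kb. Of the genes grouped under addition or removal of glutamates on the tails, TTLL12 was at 450, AGTPBP1 at 234, TTLL5 at 165 and TTLL1 at 23.2 per kb. Whether each product has such activity was not examined. The deacetylases SIRT2 and HDAC6 were at 149 and 48.2 per kb and the acetylase ATAT1 at 62.9 per kb. MAP4, the broadly expressed microtubule-associated protein, was at 1024 per kb, MAP1B at 402, MAP1S at 192 and the neuronal MAPT at 3.90 per kb.

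At the plus end, MAPRE1 was at 1663 per kb, the polymerase CKAP5 at 1484, CLASP2 at 285 and CLIP1 at 52.6 per kb. The severing genes KATNA1, KATNAL1 and FIGN were at 190, 105 and 47.3 per kb. In the gamma-tubulin complex NEDD1 was at 357, MZT1 at 267, TUBGCP4 at 201 and TUBGCP2 at 59.6 per kb. The line was checked by its markers. VIM, a mesenchymal filament gene, was at 10135 per kb. EPCAM was at 43.3 per kb, and the epithelial CDH1 and the estrogen receptor gene ESR1 had no row. KRT8, for which a low level or no row had been foreseen, was at 384 per kb, above the median gene at 108 per kb.

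**Figure D5:**
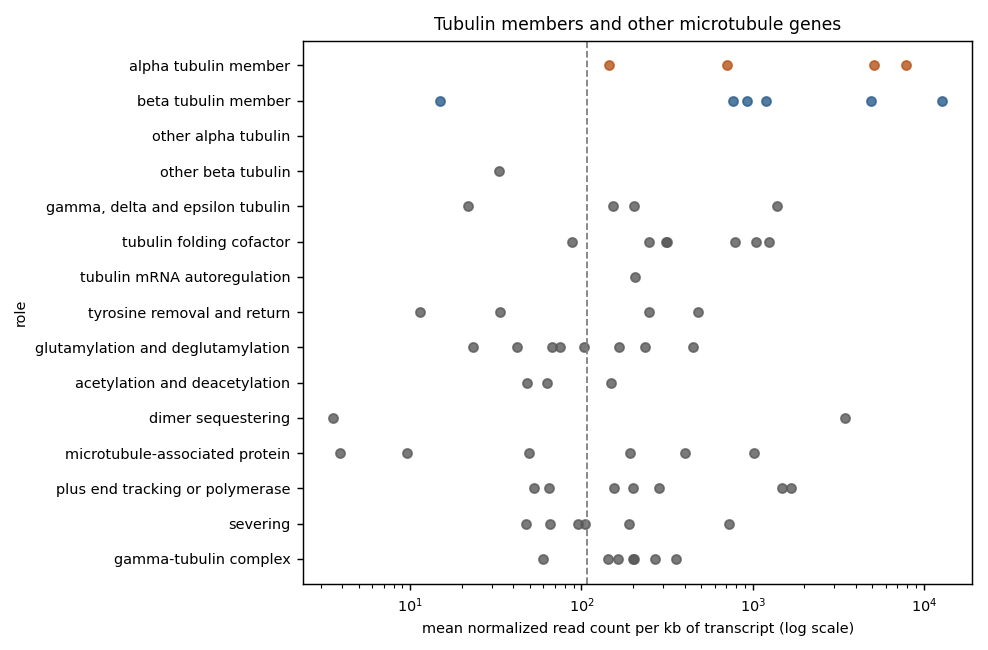
Level of the 10 tubulin members and of 56 other microtubule genes by role, as the authors' mean normalized read count per kb of transcript on a log axis, with 1 point per gene and the dashed line at the median of all genes (108 per kb). TUBB at 12734 lies above every gene of the list, whose highest is STMN1 at 3467, and no other alpha tubulin is listed.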

How the data were processed

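Total RNA of MDA-MB-231 cells (DMSO and 10 µM KH-3, 24 h, 2 libraries each, 4 in all, grouped by the sample labels) was made into TruSeq mRNA libraries and sequenced on an Illumina HiSeq system. The authors mapped reads to GENCODE release 24 transcripts with STAR, estimated reads per transcript with eXpress and normalized and compared them with DESeq2. The submitters' processing notes name STAR, DESeq2 and hg38. Versions and the libraries entering the mean are not given in the sources used here.

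The deposited table holds, per transcript, a mean normalized read count (a signal pooled over libraries by the authors) and 3 columns of their own comparison (log2 fold change, p-value, q-value). The 3 columns were not used. Without values per library, the planned test of KH-3 against DMSO, intervals and replicate errors could not be had, and depth is unknown.

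From the table, each mean was divided by the listed transcript length in kb (1000 bases) and summed over the transcripts of a gene. Transcripts were matched by ID without version to GENCODE release 44 on hg38, another release than the authors'. Of the 35 tubulin transcripts 34 were found (TUBA1C-201 was not), 25 with the same length, and of all rows 97.6%. Those of another length included the forms with most reads of TUBB, TUBB4B, TUBB6, TUBB2A, TUBB3, TUBA1A and TUBA4A. Stretches of 50 bases were compared exactly on both strands, coding sequences by global alignment (Biopython 1.88). All 10 members are named, and of the list of other microtubule genes up to 3 per role with the highest level and the lowest where a role had over 3. Some items that these rules name are not reported here. The members and lists were chosen with earlier results of these data known. Alternatives covered transcript type, low means, length and stretch length. A value was counted as moved past 1.5-fold, since no replicate spread exists. Scripts were tested on simulated data and used Python 3.11.15, numpy 2.4.6, pandas 2.3.3 and matplotlib 3.10.9.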

Additional observations from a re-analysis of the deposited data

How the results depend on the processing

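Of 112 values recomputed under another setting, 87 stayed within 1.5-fold and 25 moved further. With protein-coding transcripts alone, the level of TUBA1C was 3010 per kb and that of TUBB2A 610 per kb. With only the transcript of highest mean, TUBA1C was at 2078 per kb (21.6% of the alpha class), TUBA4A at 37.7 (0.391%), TUBB2A at 610 and TUBB6 at 693 per kb. Without division by length, the summed mean was 149 for TUBA4A (0.695% of the alpha class) and 1234 for TUBB2A (2.59% of the beta class), compared by their shares among the 10 genes. With 200 bases taken off each length, chosen for this ratio after seeing the data, alpha over beta was 0.700. TUBB and TUBA1B kept ranks 1 and 2 and TUBB6 rank 5 in all 5 alternatives, whereas TUBB4B passed TUBA1C in 3 of them and TUBB2A, TUBB3 and TUBA1A changed places in 2. No value for TUBB2B could be given with protein-coding transcripts alone or with means under 50 left out. With stretches of 75 bases, the share found in other genes was 33.0% for TUBA1A-001, 9.00% for TUBB4B-001 and 0 for TUBB6-001. With 100 bases it was 21.5% for TUBA1A-001, 21.7% for TUBB-001, 4.71% for TUBB4B-001 and 0 for TUBB6-001. Counting members alone, it was 56.6% for TUBA1B-001, 26.7% for TUBA1C-001, 8.99% for TUBB3-001, 6.21% for TUBB4B-001 and 0 for TUBA4A-001 and TUBB-001. TUBA1C-002, which held more reads than TUBA1C-001, was at 45.0% with members alone. The first settings change which transcripts or lengths enter the sum, and the last which genes are compared.

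No paired analysis was possible because the table holds 1 mean over libraries per transcript. The replicate block, leaving out each library and DESeq2 without a filter were for the same reason not run. The levels carry no error, so neighbours in the order were not tested, and reads shared among TUBA1A, TUBA1B and TUBA1C or between TUBB2A and TUBB2B make their single levels less certain than their sums.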
